A study of Danio rerio with 32 samples.

Results

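The genes described here are 10 members of the bone morphogenetic protein (BMP) pathway and its early targets, as transcribed in the zebrafish tailbud. They are the ligands bmp2b and bmp4, the BMP antagonist chrd (chordin), the feedback inhibitors szl (sizzled) and bambia, the ventral homeobox genes ved, vent and vox, and the inhibitor-of-differentiation genes id1 and id3. They were taken by symbol from a deposited table of 32057 genes, all 10 matched 1 row each, and all 10 passed the filter on low counts. Values were read in 8 groups of 4 libraries. The untreated groups were homozygous rad21 nz171 mutants (rad21-/-), heterozygotes of the same allele (rad21+/-), homozygous stag2b nz207 mutants (stag2b-/-) and WIK wild type. Each genotype was also raised in 2.5 µM BIO, an inhibitor of the kinase Gsk3 used to stimulate Wnt signalling, from 4 h post-fertilization until dissection. Every library came from a pool of 80 tailbuds excised at the same somite stage.

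BMP ligands are secreted dimers that bind paired type I and type II serine/threonine kinase receptors, which phosphorylate Smad1, Smad5 and Smad9. With Smad4 these enter the nucleus and switch on target genes, among them the Id genes, the ventral homeobox genes and the pathway's own inhibitors. Chordin binds BMP outside the cell and is cut by tolloid proteases, sizzled inhibits those proteases, and Bambia is a pseudoreceptor that lacks a kinase. In the zebrafish embryo this network sets ventral fates in the gastrula and acts again in the ventral tailbud as the tail grows out.

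Rad21 and Stag2 are subunits of cohesin, the ring complex that holds DNA loops and sister chromatids. rad21a averaged 53.9 ± 8.52 CPM (counts scaled to a common library size) in rad21-/-, 378 ± 31.2 CPM in rad21+/- and 784 ± 70.8 CPM in wild type (SD, n = 4 each), in the order of the labels. stag2b averaged 165 ± 7.78 CPM in stag2b-/- and 188 ± 22.2 CPM in wild type. That difference did not pass (adjusted p = 0.22), so its transcripts do not test the label of the untreated pools. In BIO-treated pools stag2b averaged 137.6 ± 5.45 CPM in stag2b-/- and 171.5 ± 19.2 CPM in wild type, without overlap. There it was called lower (log2 fold change −0.32, adjusted p = 0.013). Library totals ran from 32464614 to 115057368 fragments. The rad21 embryos were sorted by genotyping their heads and come from another line than WIK, so line and Rad21 dose cannot be told apart in comparisons with wild type. The stag2b-/- embryos also come from a line of their own. Line and stag2b genotype therefore cannot be told apart in comparisons with wild type or with rad21-/-. Replicates are separate pools, and no source used here says that they came from separate clutches, so p-values measure the spread between pools. Of 10 tailbud markers all but wnt8a were detected in every group, with 1280 to 2760 CPM summed per library. The paper names another entry for wnt8a beside the one used here. That entry was not in the list, so these values do not show whether wnt8a is expressed. In bulk tissue, fewer cells of a type and less RNA per cell cannot be told apart.

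On GRCz11, bmp2b (ENSDARG00000041430) lies at chr20:45893173-45899149 and bmp4 (ENSDARG00000019995) at chr17:50564070-50586135, both on the plus strand. id3 (ENSDARG00000054823) is on the same chromosome as bmp4, at chr17:27271399-27273296. vent (ENSDARG00000100483, chr13:50607664-50614639) and vox (ENSDARG00000099761, chr13:50621840-50624743) are neighbours on the minus strand, 7.2 kb apart. The others are chrd (ENSDARG00000006110, chr15:46790676-46828958), szl (ENSDARG00000099637, chr25:371164-375882), ved (ENSDARG00000102389, chr10:44997062-45002196), bambia (ENSDARG00000055381, chr12:23424108-23430356) and id1 (ENSDARG00000040764, chr11:18704191-18705303). Genes on the opposite strand overlap chrd, ved and id1, and fragments were counted by strand.

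Compared per length, id1 was the most abundant of the 10 genes in wild type, at 707 CPM per kb of exon. ved (91.6 CPM per kb), id3 (71.4 CPM per kb) and bambia (59.8 CPM per kb) followed, then vox at 37 CPM per kb. The level was 20.9 CPM per kb for bmp4 and 19.2 CPM per kb for chrd. The lowest were vent at 11.6 CPM per kb, bmp2b at 10.5 CPM per kb and szl at 9.83 CPM per kb, and the order among these last 3 lies within the spread of their pools. Pools of ved, id3 and bambia overlapped one another per length, as did those of bmp4 and chrd, and the vent pools also overlapped those of bmp4 and chrd. In rad21-/- the lowest level was that of szl, at 0.492 CPM per kb.

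**Figure D1:**
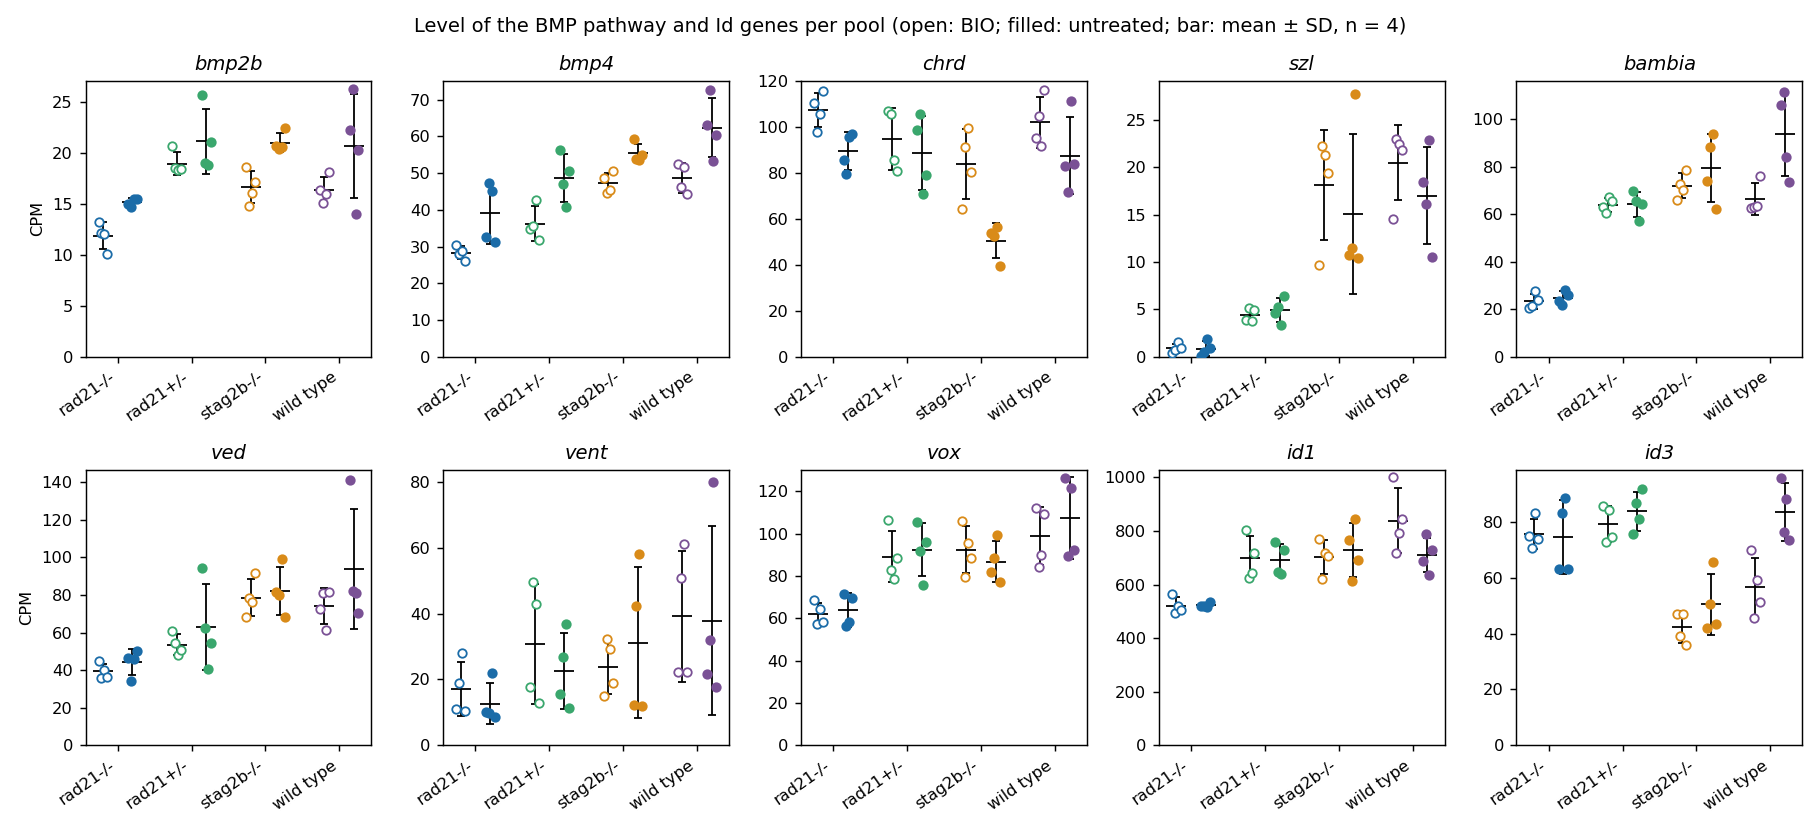
Level of each gene in CPM (y axis, linear from 0) in the 4 genotypes (x axis), with open points for BIO-treated pools, filled points for untreated pools, and bars for the mean ± SD of 4 pools. szl and bambia sit lowest in rad21-/-, chrd and id3 sit low in untreated stag2b-/-, and vent scatters widely within every group.

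Most of the 10 genes were lower in rad21-/- tailbuds. In untreated rad21-/- tailbuds 7 of the 10 were called lower than in wild type, where 16.7% of all 20677 genes tested were called lower. The 7 were szl, bambia, ved, vox, bmp4, bmp2b and id1. The median log2 fold change of the 10 was −0.71, against −0.02 over all genes tested. vent, id3 and chrd did not pass. For szl, bambia, ved, vox, bmp4 and id1 the rad21-/- pools lay below every wild-type pool, and for bmp2b they overlapped. How many of all genes had pools without overlap was not counted, here or in the comparisons below. Calls are at a 5% false discovery rate (FDR) from edgeR's quasi-likelihood test, with p adjusted over all genes.

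szl, a secreted Frizzled-related inhibitor of the proteases that cut chordin, had the largest fold change of the 10. It had 0.0868, 0.477, 1.89 and 0.955 CPM in rad21-/- pools, against 18.4, 16.1, 22.9 and 10.6 CPM in wild-type pools. The lowest of these pools rests on 4 fragments, and no rad21-/- pool came near the wild-type range. The log2 fold change was −4.31 (SE 0.58, adjusted p = 6.2e-05), which is 5.04% of the wild-type level. Over the alternatives run the szl change was called each time and ran from −5.07 without rad21-/- replicate 3 to −3.93 without rad21-/- replicate 1. bambia, the kinase-less pseudoreceptor, had 23.3, 21.7, 28.2 and 26.2 CPM in rad21-/-, against 106, 111, 84.1 and 73.8 CPM in wild type. Its pools were tight in the mutant and far below wild type, with a log2 fold change of −1.91 (SE 0.15, adjusted p = 3.1e-08) or 26.6% of the wild-type level.

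Both ligands were lower in rad21-/-, by smaller folds. bmp4 had 32.6, 47.3, 45.1 and 31.1 CPM in rad21-/-, against 63.0, 72.8, 53.4 and 60.4 CPM in wild type, with no overlap and a log2 fold change of −0.67 (SE 0.14, adjusted p = 0.0013). bmp2b, the ligand that with Bmp7 patterns the ventral gastrula, had 15, 14.7, 15.5 and 15.4 CPM in rad21-/-, against 22.2, 26.2, 13.9 and 20.3 CPM in wild type. The third wild-type pool lay below all mutant pools, and the log2 fold change was −0.44 (SE 0.15, adjusted p = 0.029). The bmp2b call was lost when any of 7 of the 8 libraries compared was left out (all but wild-type replicate 3), with adjusted p up to 0.11. chrd, the antagonist, averaged 89.4 ± 8.27 CPM in rad21-/- and 87.5 ± 16.8 CPM in wild type (log2 fold change 0.04).

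Among the homeobox repressors that act downstream of BMP, ved had 46.2, 34.2, 46.1 and 50.1 CPM in rad21-/-, against 141, 82.0, 81.0 and 70.6 CPM in wild type. Its groups did not overlap, with the first wild-type pool far above the others, and the log2 fold change was −1.08 (SE 0.24, adjusted p = 0.0024). vox had 71.6, 56.3, 58.2 and 69.8 CPM in rad21-/-, against 126, 89.5, 122 and 92.4 CPM in wild type. Again no pools overlapped (log2 fold change −0.74, SE 0.13, adjusted p = 3.7e-04). vent, the neighbour of vox, averaged 12.7 ± 6.27 CPM in rad21-/- and 37.8 ± 28.7 CPM in wild type, with overlapping pools and a log2 fold change of −1.57 (SE 0.64, adjusted p = 0.079). DESeq2 (adjusted p = 0.035) and a fit to all 32 libraries (adjusted p = 0.038) called it. Without wild-type replicate 3 the log2 fold change was −0.90 (adjusted p = 0.29).

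The Id genes encode helix-loop-helix proteins without a DNA-binding domain, which bind and block other helix-loop-helix factors. id1 had 521, 519, 515 and 536 CPM in rad21-/-, against 688, 791, 637 and 728 CPM in wild type. Every mutant pool was below every wild-type pool, and the log2 fold change was −0.44 (SE 0.11, adjusted p = 0.0041). id3 averaged 74.5 ± 13.2 CPM in rad21-/- and 83.4 ± 10.3 CPM in wild type and did not pass (log2 fold change −0.16, adjusted p = 0.44).

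Cell type markers moved in the same comparison. The summed level of the 10 tailbud markers was 1280 to 1690 CPM in rad21-/- and 2000 to 2760 CPM in wild type. Of those detected, sox2 averaged higher in rad21-/- (63.3 CPM) than in wild type (44.0 CPM), and the others averaged lower. For 7 of 10 blood and vessel markers matched the summed level was 98 to 121 CPM in rad21-/- and 170 to 235 CPM in wild type. For 8 notochord markers (col9a1a near 0) it was 657 to 758 CPM in rad21-/- and 309 to 498 CPM in wild type. Most of that sum came from col8a1a (mean 310 CPM in rad21-/- and 138 CPM in wild type) and ntd5 (295 CPM in rad21-/- and 188 CPM in wild type). Of the other notochord markers, foxa2 averaged 37.2 CPM in rad21-/- and 32.4 CPM in wild type, and loxl1 35.6 CPM in rad21-/- and 27.3 CPM in wild type. The mean of shha was 28.2 CPM in rad21-/- and 26.6 CPM in wild type. Lower in rad21-/- were shhb (1.62 CPM, against 3.74 CPM in wild type) and ntn1a (2.69 CPM, against 10.5 CPM in wild type). The 5 neural crest markers summed to 187 to 213 CPM in rad21-/- and 108 to 153 CPM in wild type. The sum of 9 epidermal markers overlapped, at 37200 to 51100 CPM in rad21-/- and 30000 to 64000 CPM in wild type. The part of these shifts in the levels of the BMP genes was not tested.

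**Figure D2:**
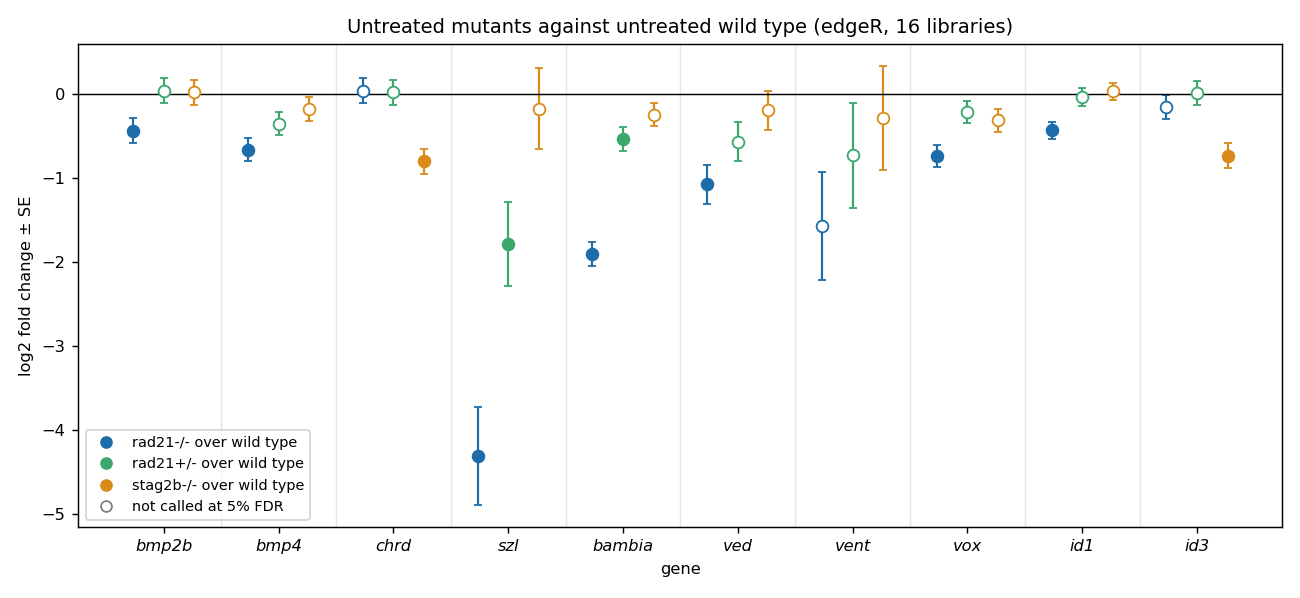
Log2 fold change ± SE (y axis) of the 10 genes (x axis) in untreated rad21-/-, rad21+/- and stag2b-/- tailbuds over wild type, 4 pools a group, with filled points called at 5% FDR and open points not called. The rad21-/- points run from −4.31 for szl to 0.04 for chrd, and those of stag2b-/- are called for chrd (−0.80) and id3 (−0.74).

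In rad21+/- tailbuds, 2 of the 10 genes were called lower than in wild type, where 9.75% of genes were called lower. These were szl and bambia. szl had 4.66, 5.24, 3.39 and 6.37 CPM in rad21+/-, all below the wild-type pools, with a log2 fold change of −1.79 (SE 0.50, adjusted p = 0.02). That call was lost without wild-type replicate 3 (adjusted p = 0.054), rad21+/- replicate 1 (adjusted p = 0.055) or rad21+/- replicate 3 (adjusted p = 0.063). bambia had 69.9, 65.5, 57.3 and 64.3 CPM in rad21+/-, also without overlap (log2 fold change −0.54, SE 0.14, adjusted p = 0.01). bmp4 averaged 48.7 ± 6.50 CPM in rad21+/- (log2 fold change −0.36, adjusted p = 0.077) and ved 63.1 ± 22.8 CPM (log2 fold change −0.57, adjusted p = 0.098). Without wild-type replicate 3 the adjusted p of bmp4 was 0.043, and without rad21+/- replicate 1 that of ved was 0.014. id1, id3, chrd and bmp2b had log2 fold changes between −0.035 and 0.035. The summed notochord markers were 561 to 712 CPM in rad21+/- and 309 to 498 CPM in wild type. Among them col8a1a averaged 305 CPM in rad21+/- and 138 CPM in wild type, and foxa2 33.4 CPM and 32.4 CPM in the same order. Means of ntd5, shha, loxl1 and ntn1a were higher in rad21+/- too, and those of shhb and col9a1a (near 0) were lower. The blood and vessel markers summed to 112 to 144 CPM in rad21+/- and 170 to 235 CPM in wild type. The tailbud markers summed to 1550 to 2050 CPM in rad21+/- and 2000 to 2760 CPM in wild type. The part of these markers in the szl and bambia levels was not tested.

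Set against rad21+/- from the same line, rad21-/- tailbuds had 4 of the 10 genes called lower, where 3.84% of genes were called lower. bambia differed by −1.37 (SE 0.14, adjusted p = 5.9e-06), szl by −2.52 (SE 0.56, adjusted p = 0.014, or −3.27 without rad21-/- replicate 3), vox by −0.53 (SE 0.13, adjusted p = 0.023) and id1 by −0.40 (SE 0.11, adjusted p = 0.029), all on the log2 scale. In bmp2b, szl, vox, bambia and id1 the rad21-/- pools lay below every rad21+/- pool, as the values above show for szl and bambia. The id1 pools had 515 to 536 CPM in rad21-/- and 640 to 758 CPM in rad21+/-. bmp2b differed by −0.48 and did not pass (adjusted p = 0.075). The calls for vox, id1 and szl were each lost on leaving out a library. rad21-/- replicate 2 ended all 3 of them (adjusted p = 0.11 for vox, 0.091 for id1 and 0.058 for szl). rad21+/- replicates 1 and 4 and rad21-/- replicate 3 ended vox and id1 (adjusted p from 0.079 to 0.11). rad21+/- replicate 2 ended vox (adjusted p = 0.065), and rad21-/- replicates 1 and 4 ended id1 (adjusted p = 0.079 and 0.075). The count was then as low as 1, with bambia left.

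In untreated stag2b-/- tailbuds chrd and id3 were called lower than in wild type, 2 of the 10. Of all genes 3.88% were called lower in this comparison. chrd had 53.8, 52.4, 56.6 and 39.4 CPM in stag2b-/-, against 83.2, 71.7, 111 and 84.0 CPM in wild type. No pools overlapped, and the log2 fold change was −0.80 (SE 0.15, adjusted p = 0.0031), or 57.3% of the wild-type level. id3 had 42.1, 50.7, 65.5 and 43.3 CPM in stag2b-/-, against 95.6, 76.4, 88.1 and 73.6 CPM in wild type. These groups did not overlap either (log2 fold change −0.74, SE 0.15, adjusted p = 0.0051). Both calls held under every alternative run. szl averaged 15.1 ± 8.44 CPM in stag2b-/- and 17 ± 5.14 CPM in wild type, bambia 79.5 ± 14.2 CPM and 93.8 ± 17.8 CPM in the same order, and neither passed.

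Beside these, the summed notochord markers were 295 to 413 CPM in stag2b-/- and 309 to 498 CPM in wild type. The 6 yolk and apolipoprotein markers (ttr near 0) summed to 1020 to 1140 CPM in stag2b-/- and 1760 to 2340 CPM in wild type. The 5 neural crest markers summed to 177 to 191 CPM in stag2b-/- and 108 to 153 CPM in wild type. Their part in the chrd and id3 levels was not tested.

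A direct comparison of the mutants separated most of the set. In stag2b-/- against rad21-/-, 7 of the 10 genes were called higher (13.4% of all genes were) and 2 were called lower (14.2% of all genes were). Higher in stag2b-/- were szl (log2 fold change 4.13, SE 0.58, adjusted p = 9.8e-05, or 4.90 without rad21-/- replicate 3), bambia (1.66), ved (0.88), bmp4 (0.49), id1 (0.46), bmp2b (0.45) and vox (0.43). Lower were chrd, at −0.84 (SE 0.15, adjusted p = 4.0e-04), and id3, at −0.58 (SE 0.15, adjusted p = 0.0065). vent did not pass (1.28, adjusted p = 0.16). This comparison shares its libraries with those against wild type. The bmp2b call was lost without rad21-/- replicate 1 or 2 or stag2b-/- replicate 4 (adjusted p up to 0.074), that of vox without rad21-/- replicate 2 or 3 or stag2b-/- replicate 2 or 3 (adjusted p up to 0.079), and that of bmp4 without rad21-/- replicate 1 (adjusted p = 0.05 after rounding).

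The other genes of the pathway were taken from 4 further lists. Of 15 other BMP-family ligands 11 passed the filter, and in rad21-/- 7 of the 11 fell (16.7% of all genes did) and 1 rose (15.8% did), with a median log2 fold change of −0.88. bmp6 averaged 3.91 ± 0.801 CPM in rad21-/- and 22 ± 6.26 CPM in wild type (log2 fold change −2.48, adjusted p = 3.6e-08). bmp2a averaged 3.62 ± 1.32 CPM in rad21-/- and 15.2 ± 0.586 CPM in wild type (log2 fold change −2.07). bmp7a, which pairs with Bmp2b in the gastrula, had a log2 fold change of −1.96, and bmp3 one of −1.90 (adjusted p = 6.7e-10). gdf6b was the ligand that rose in rad21-/- (0.61). In rad21+/- 2 of the 11 fell, against 9.75% of all genes. These were bmp2a, at 8.42 ± 1.76 CPM in rad21+/- and 15.2 ± 0.586 CPM in wild type (log2 fold change −0.85, adjusted p = 0.0071), and bmp7b, at 2.45 ± 0.399 CPM in rad21+/- and 4.28 ± 0.909 CPM in wild type (−0.80, adjusted p = 0.0092). In stag2b-/- 2 of the 11 fell, where 3.88% of all genes did, gdf6b and bmp3, with log2 fold changes of −0.74 and −0.42.

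Receptors and Smads had calls in both directions in rad21-/-. All 24 passed the filter, 4 rose (15.8% of all genes did) and 2 fell (16.7% of all genes did), with a median log2 fold change of 0.03. The type I receptors bmpr1bb (log2 fold change 0.93, adjusted p = 0.0028) and bmpr1ba (0.84, adjusted p = 8.2e-04) rose, as did the type II receptor acvr2bb (0.68, adjusted p = 0.0066). In rad21+/- 5 of the 24 rose, where 10.8% of all genes did, with bmpr1bb at 0.87, acvr2bb at 0.70 and acvr2ba at 0.68. In stag2b-/- the log2 fold changes of the list lay between −0.50 for acvr2bb (adjusted p = 0.10) and 0.47 for bmpr1ba (adjusted p = 0.096), with a median of 0.06.

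Of 25 listed secreted modulators 21 were matched and 15 tested, of which 5 fell (16.7% of all genes did) and 1 rose (15.8% did) in rad21-/-. Lower were the BMP-binding protein gene bmper, at 3.54 ± 0.134 CPM in rad21-/- and 13.2 ± 2.53 CPM in wild type (log2 fold change −1.89, adjusted p = 4.8e-08), and the antagonist nog1 (noggin), at 7.99 ± 2.17 CPM in rad21-/- and 23.7 ± 6.78 CPM in wild type (log2 fold change −1.56). dand5, a DAN-family antagonist expressed at Kupffer's vesicle, had a log2 fold change of −1.40. The chordin-like gene chrdl2 (−2.03, adjusted p = 2.0e-04) and nog2 (−0.68, adjusted p = 0.0021) fell as well. In rad21+/- 2 of the 15 rose (10.8% of all genes did) and 1 fell (9.75% did). The activin and BMP antagonist fsta rose (log2 fold change 1.00, adjusted p = 0.0025), as did fstl1a (0.50, adjusted p = 0.047). chrdl2 fell in rad21+/- too (−1.80, adjusted p = 8.1e-04). In stag2b-/- the log2 fold changes of the list ran from −1.16 for dand5 (adjusted p = 0.071) to 0.65 for fstb (adjusted p = 0.64), with a median of −0.04.

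Of 18 further BMP targets all passed the filter, and in rad21-/- 11 fell (16.7% of all genes did) and 2 rose (15.8% did), with a median of −0.53. The genes that fell included klf2a (log2 fold change −1.32), the even-skipped homologue eve1 of the ventral tailbud (−1.27), msx2a (−1.26), msx2b (−1.19) and bambib (−1.07), the paralogue of bambia. Those that rose were tfap2a (0.60) and the epidermal regulator tp63 (0.34). In rad21+/- 5 fell (9.75% of all genes did) and 1 rose (10.8% did), with klf2a at −0.70, gata2a at −0.57 and msx3 at −0.49. In stag2b-/- 1 of the 18 was called higher, where 2.41% of all genes were, and this was tp63 (163 ± 8.12 CPM in stag2b-/- and 116 ± 8.00 CPM in wild type, log2 fold change 0.49, adjusted p = 0.0027).

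**Figure D3:**
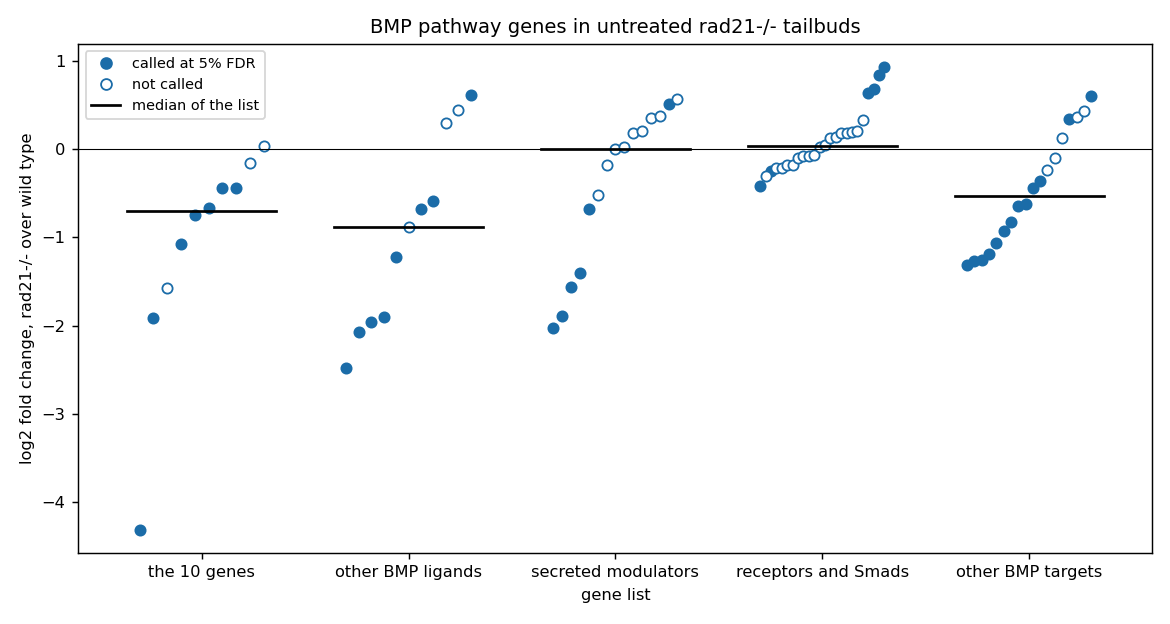
Log2 fold change of each tested gene in untreated rad21-/- over wild type (y axis) in the 10 genes and 4 further BMP lists (x axis), ordered by value within a list, with filled points called at 5% FDR and lines at list medians. The medians of the 10 genes (−0.71), other ligands (−0.88) and other targets (−0.53) lie below 0, and that of receptors and Smads is 0.03.

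After BIO 3 of the 10 genes were called in wild type and 1 in each mutant. Calls over all 21385 genes were also most numerous in wild type, with 1622 higher and 2087 lower. They were 449 and 1083 in rad21-/-, 281 and 494 in rad21+/-, and 698 and 1010 in stag2b-/-, in the same order. In wild type, bmp4, bambia and id3 were called lower after BIO, 3 of the 10, where 9.76% of 21385 genes were called lower. bmp4 had 52.5, 46.3, 51.6 and 44.4 CPM in treated pools, against 63.0, 72.8, 53.4 and 60.4 CPM in untreated pools, with no overlap. Its log2 fold change was −0.36 (SE 0.12, adjusted p = 0.033), and the call was lost without wild-type replicate 1 or 2 or treated wild-type replicate 2 or 4 (adjusted p from 0.075 to 0.13). bambia had 62.8, 62.9, 63.7 and 76.3 CPM in treated pools, against 106, 111, 84.1 and 73.8 CPM in untreated pools. The highest treated pool overlapped the lowest untreated pool (log2 fold change −0.50, SE 0.12, adjusted p = 0.0046). The bambia call was lost with only the libraries compared in the edgeR fit (adjusted p = 0.053). id3 had 70.0, 45.4, 59.2 and 51.4 CPM in treated pools, against 95.6, 76.4, 88.1 and 73.6 CPM in untreated pools, without overlap (log2 fold change −0.56, SE 0.14, adjusted p = 0.0041).

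In the same wild-type pools 10 of the 18 further BMP targets fell after BIO, where 9.76% of all genes fell and 7.58% rose. Their median was −0.40, against 0.00 over all genes. klf2a (log2 fold change −0.87), gata3 (−0.85) and msx1b (−0.49) fell by most among the better-expressed. Among other ligands 3 of 11 fell, bmp7b of the better-expressed ones (log2 fold change −0.67). The inhibitory Smad gene smad6a fell (−0.27, adjusted p = 0.016), and the receptor-regulated smad5 rose (0.22, adjusted p = 0.032). Of the modulators bmper fell (−0.42, adjusted p = 0.02) and fsta rose (0.62, adjusted p = 0.024). The summed epidermal markers were 19800 to 27500 CPM in treated and 30000 to 64000 CPM in untreated wild type, without overlap. Notochord marker sums rose without overlap (511 to 594 CPM treated, 309 to 498 CPM untreated). So did sums of neural (448 to 502 CPM treated, 366 to 440 CPM untreated) and muscle markers (400 to 469 CPM treated, 307 to 391 CPM untreated). Sums for the other cell types overlapped. The part of these shifts in the levels of the BMP genes was not tested.

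As a check of the BIO label, the Wnt targets sp5a, sp5l and nkd1 rose in wild type (log2 fold changes 0.38, 0.28 and 0.45), dkk1b fell (−0.86), and axin2, lef1, znrf3 and tcf7 did not pass. The summed level of these 8 targets was 601 to 649 CPM in treated and 560 to 580 CPM in untreated wild type. In rad21-/- it was 630 to 758 CPM in treated and 607 to 630 CPM in untreated pools, and in rad21+/- 588 to 674 CPM in treated and 533 to 668 CPM in untreated pools. In stag2b-/- it was 563 to 589 CPM in treated and 563 to 629 CPM in untreated pools. In each mutant edgeR called 0 of the 8 after BIO, with 4 at an unadjusted p under 0.05 in rad21-/-, 1 in rad21+/- and 1 in stag2b-/-. The share of all genes at that unadjusted p was not counted. DESeq2 called 1 of the 8 in rad21-/- and 0 in the other mutants. The median log2 fold change of the 8 after BIO was 0.17 in rad21-/-, 0.15 in rad21+/-, −0.03 in stag2b-/- and 0.15 in wild type. In the mutants these transcripts thus do not check the BIO label.

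In rad21-/- tailbuds 1 of the 10 genes was called lower after BIO, bmp4, where 5.06% of genes were called lower. It had 30.6, 28.0, 28.7 and 26.2 CPM in treated and 32.6, 47.3, 45.1 and 31.1 CPM in untreated pools, without overlap (log2 fold change −0.46, SE 0.12, adjusted p = 0.014). Without rad21-/- replicate 2 (adjusted p = 0.11), rad21-/- replicate 3 or treated replicate 4 (adjusted p = 0.061 for each) that call was lost. bmp4 was also the gene called lower after BIO in rad21+/-, 1 of 10, where 2.31% of genes were called lower. It had 34.9, 35.6, 42.8 and 31.7 CPM in treated and 56.3, 47.1, 40.8 and 50.7 CPM in untreated rad21+/- pools, and the third pools overlapped (log2 fold change −0.43, SE 0.12, adjusted p = 0.04). That call was lost without replicate 1 or 4 of either rad21+/- group or treated replicate 2 (adjusted p from 0.098 to 0.13). The summed epidermal markers were 24700 to 36200 CPM in treated and 37200 to 51100 CPM in untreated rad21-/-. In rad21+/- they were 30200 to 32900 CPM in treated and 32600 to 48700 CPM in untreated pools. Tailbud markers summed to 1800 to 1950 CPM in treated and 1280 to 1690 CPM in untreated rad21-/-. Neural crest markers summed to 165 to 173 CPM in treated and 187 to 213 CPM in untreated rad21-/-. Pronephros markers summed to 58.3 to 63.5 CPM in treated and 52.6 to 55.0 CPM in untreated rad21+/-. The part of these markers in the bmp4 level was not tested.

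In stag2b-/- tailbuds 1 of the 10 genes was called higher after BIO, chrd, where 3.26% of genes were called higher. chrd had 64.5, 91.5, 99.8 and 80.6 CPM in treated and 53.8, 52.4, 56.6 and 39.4 CPM in untreated pools. All treated pools lay above all untreated ones, with a log2 fold change of 0.74 (SE 0.14, adjusted p = 0.002), and the call held under every alternative run. In the same genotype the summed notochord markers were 405 to 440 CPM in treated and 295 to 413 CPM in untreated pools, and the epidermal markers 30000 to 35800 CPM in treated and 42500 to 55000 CPM in untreated pools. Neural crest markers summed to 117 to 138 CPM in treated and 177 to 191 CPM in untreated stag2b-/-. The part of these markers in the chrd level was not tested. The Wnt targets given above did not show the treatment in stag2b-/-. bmp4 averaged 47.4 ± 2.81 CPM in treated and 55.4 ± 2.65 CPM in untreated stag2b-/- pools, without overlap, and did not pass (adjusted p = 0.26). bmp2b did not pass after BIO in any genotype. Its log2 fold change was −0.34 in stag2b-/- (adjusted p = 0.098) and −0.35 in rad21-/- (adjusted p = 0.089), without overlap in either. It was −0.16 in rad21+/- (adjusted p = 0.53) and −0.33 in wild type (adjusted p = 0.066, or 0.0021 without wild-type replicate 3), with overlap.

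**Figure D4:**
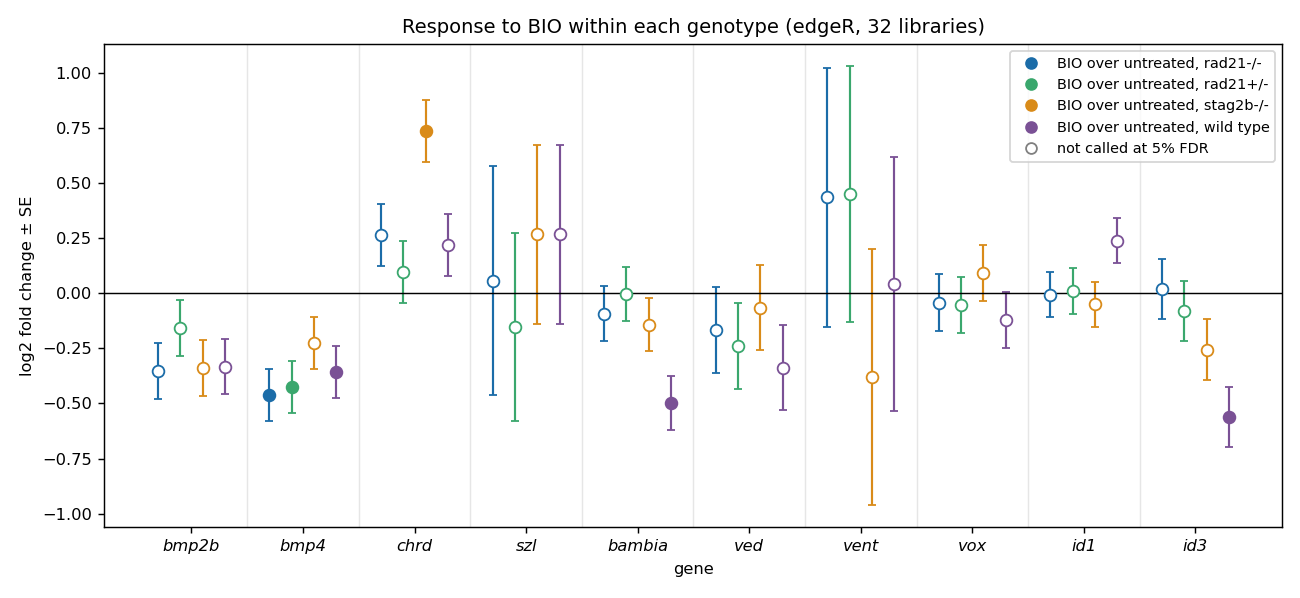
Log2 fold change ± SE of BIO-treated over untreated pools (y axis) for the 10 genes (x axis) in each genotype, 4 pools a group, with filled points called at 5% FDR. bmp4 lies below 0 in every genotype, chrd is called in stag2b-/- (0.74), and bambia (−0.50) and id3 (−0.56) are called in wild type.

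None of the 10 genes was called for a difference between a mutant's response to BIO and that of wild type (edgeR interaction test, adjusted over all genes). The share of genes called for such a difference was 0.874% for rad21-/-, 0.912% for rad21+/- and 1.34% for stag2b-/-. At an unadjusted p under 0.05 there were 2 of the 10 in each of the 3 tests, and DESeq2 called none. How many of all genes had an unadjusted p under 0.05 was not counted, so these counts have nothing to be set against. The interaction of chrd in stag2b-/- was 0.52 on the log2 scale (SE 0.20, adjusted p = 0.22), that of id3 in rad21-/- 0.58 (SE 0.19, adjusted p = 0.16) and that of bambia in rad21+/- 0.49 (SE 0.17, adjusted p = 0.20). The responses are therefore not shown to differ between genotypes.

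Mutants were also compared with wild type among treated pools. In treated rad21-/- against treated wild type, 7 of the 10 genes were called lower (18.8% of all genes were) and id3 was called higher, 1 of 10 (16.8% of all genes were). The 7 were szl (log2 fold change −4.53, SE 0.49, adjusted p = 5.0e-08), bambia (−1.51), ved (−0.92), bmp4 (−0.78), id1 (−0.69), vox (−0.67) and bmp2b (−0.47), and in each the groups did not overlap. szl had 0.409, 0.672, 1.55 and 0.898 CPM in treated rad21-/- pools, against 14.6, 23, 22.4 and 21.8 CPM in treated wild-type pools. id3 had 75.0, 70.5, 83.0 and 73.8 CPM in treated rad21-/- pools, all above the treated wild-type pools listed before (log2 fold change 0.42, SE 0.14, adjusted p = 0.016). Leaving out treated wild-type replicate 2 (adjusted p = 0.08) or treated rad21-/- replicate 3 (adjusted p = 0.053) ended that call.

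Treated rad21+/- had szl and bmp4 called lower than treated wild type, 2 of the 10, where 11.2% of genes were, and id3 called higher, 1 of the 10, where 11.7% of genes were. szl had 3.84, 5.11, 3.75 and 4.92 CPM in treated rad21+/- (log2 fold change −2.21, SE 0.43, adjusted p = 3.9e-04). bmp4 differed by −0.43 (adjusted p = 0.0082). id3 had 85.6, 72.7, 84.0 and 74.5 CPM, above all treated wild-type pools (log2 fold change 0.49, adjusted p = 0.0089), and without treated wild-type replicate 2 its adjusted p was 0.051. id1 did not pass (log2 fold change −0.27, adjusted p = 0.061), though it did without treated wild-type replicate 2 (adjusted p = 0.028) or treated rad21+/- replicate 1 (adjusted p = 0.031). bambia averaged 64.1 ± 2.92 CPM in treated rad21+/- and 66.4 ± 6.59 CPM in treated wild type and did not pass (log2 fold change −0.05).

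In treated stag2b-/- against treated wild type, id3 was called lower, 1 of the 10, where 7.04% of genes were called lower. It had 46.9, 39.2, 47.0 and 35.8 CPM in treated stag2b-/- pools, overlapping the 45.4 to 70.0 CPM of treated wild type (log2 fold change −0.42, SE 0.14, adjusted p = 0.037). The call was lost without treated wild-type replicate 1 or 3 or treated stag2b-/- replicate 2 or 4 (adjusted p from 0.089 to 0.19). chrd averaged 84.1 ± 15.3 CPM in treated stag2b-/- and 102 ± 11 CPM in treated wild type, with overlapping pools (log2 fold change −0.28, adjusted p = 0.21).

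vent varied widely between pools, with its replicate number. Replicate 3 lay above its group's mean log2 level in 8 of the 8 groups and replicate 2 in 7 of them, while replicates 1 and 4 lay above it in none. In untreated wild type it had 21.8, 32, 80.0 and 17.6 CPM in replicates 1 to 4, and in untreated stag2b-/- 12.4, 42.2, 58.0 and 11.9 CPM. In rad21-/- it had 10.2, 9.91, 22 and 8.62 CPM. Over the 8 groups its coefficient of variation was 34.6% to 76%. The range was 16% to 91.2% for szl, 10.3% to 36.2% for ved, 8.61% to 17.9% for the neighbouring vox, and 1.73% to 14.4% for id1. The 91.2% of szl was that of untreated rad21-/-, where its counts were few (4 to 91 fragments). Some of the other genes went with the replicate number in part. For szl, replicate 1 lay above its group's mean in 1 of the 8 groups and replicate 3 in 6. For id3, replicate 3 did so in 7 and replicate 4 in 1. For chrd, replicates 1 to 4 did so in 4, 5, 4 and 3. What the replicate numbers stand for is not given in the sources used here.

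**Figure D5:**
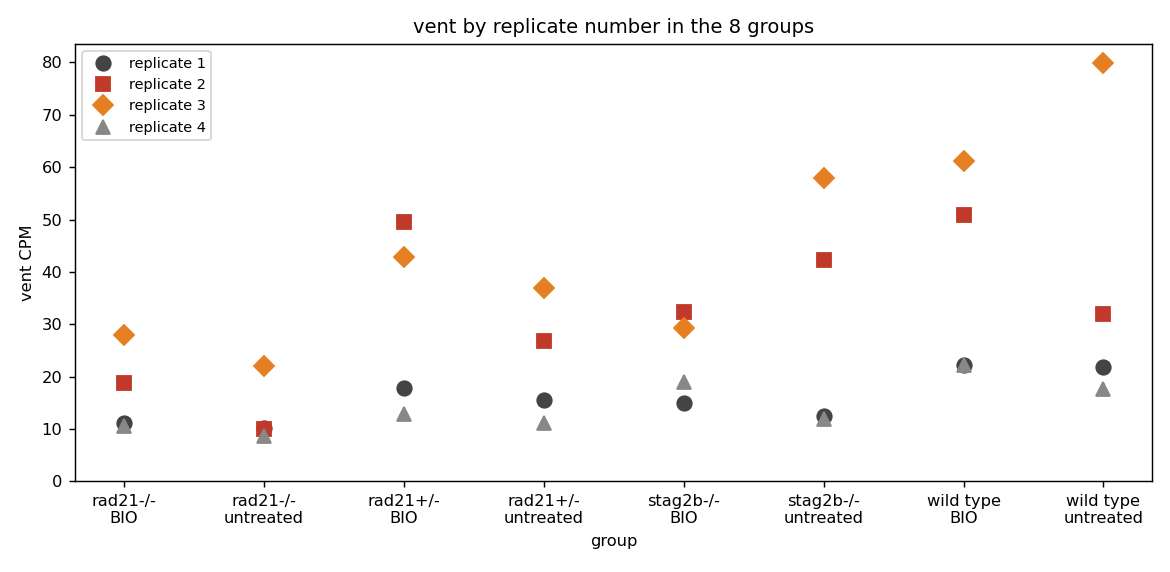
vent level in CPM (y axis, from 0) in the 8 groups (x axis), with a symbol for each replicate number. Replicates 2 and 3 sit above replicates 1 and 4 in every group but untreated rad21-/-, where replicate 2 (9.91 CPM) is level with replicates 1 and 4.

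The genes most like each member over the 32 libraries were sought among the 13823 other genes averaging log2 CPM 1 or more, by Pearson's r of log2 CPM. These libraries share their genotypes and treatments, so r describes the pattern and was not tested. bambia was most like arl4ca (r = 0.96) and cxcr4a (r = 0.95). szl was most like bmp2a (r = 0.95), a ligand named above, and lmo4b (r = 0.93). vent followed crk (r = 0.96) and rhebl1 (r = 0.93). chrd was most like admp (r = 0.84), which encodes a dorsal ligand of the BMP family, and bivm (r = 0.83). bmp4 was most like b3gnt2l (r = 0.89) and bmp2b like jag2b and nid2a (r = 0.89 each). For id1 the closest were ngfb (r = 0.89) and cdkn1cb (r = 0.88), for id3 slc43a3b (r = 0.85) and eif3hb (r = 0.83). ved was closest to ncapd2 (r = 0.885) and tnpo3 (r = 0.878) and vox to fgf20a and arl4d (r = 0.87 each).

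Among the 10 genes themselves, szl and bambia had the highest r over the 32 libraries (0.90), then ved and bambia (0.83), vox and bambia (0.82) and ved and vox (0.81). After each group's mean was taken away, r was 0.60 for ved and vox, 0.56 for ved and bambia, 0.54 for szl and bambia and 0.25 for vox and bambia. Each r was lower than over all libraries, and the libraries within a group share genotype and treatment.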

How the data were processed

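RNA-seq counts per gene were measured in 32 libraries from pools of 80 tailbuds, 4 for each of 4 genotypes with and without BIO. RNA was made into stranded poly(A) libraries. The authors used Cutadapt for trimming, HISAT2 for alignment (GRCz11) and featureCounts 1.5.3 to count stranded fragments per Ensembl 98 gene. The deposited values are raw counts, used as deposited, together with the deposited exonic lengths. Symbols were found for 29004 of the 32057 genes in tables of gene names, of RefSeq and of the study.

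Groups came from the labels. Tests were edgeR's robust quasi-likelihood tests (edgeR 4.0.16, R 4.3.3) after filterByExpr and TMM scaling, with Benjamini-Hochberg adjustment over all genes tested and calls at 5% FDR. Comparisons among untreated genotypes came from 16 libraries and 20677 genes, and the others from all 32 libraries and 21385 genes. SE is the absolute log2 fold change divided by the square root of F. Log2 CPM used a prior count of 2. The fits were tested on simulated data. Alternatives were DESeq2 1.42.0, its size factors in edgeR, no filter, a replicate block, other sets of libraries and leaving out each library. Tables and figures were made in Python 3.11.15 with matplotlib 3.10.9.

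The 10 genes, the further lists and the tests were chosen with earlier results of these data known. Each of the 10 was tested in every comparison, but not every gene that did not pass was named. Of each further BMP list up to 3 genes were named per comparison of an untreated mutant, or of BIO in wild type, with untreated wild type, namely those called with the largest change, at a mean log2 CPM of 1 or more. Other genes of these lists were named after their values were seen, as were the single Wnt targets and markers. These were msx2b, bambib, tfap2a, tp63, gdf6b, bmp3, nog2 and chrdl2 in rad21-/-, chrdl2 in rad21+/- and the extremes in stag2b-/-. No promoter or protein sequences were used here.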

Additional observations from a re-analysis of the deposited data

Results flagged for a closer look

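Among the 80 sets of 4 pools examined (10 genes in 8 groups), 7 had a pool whose gap to the nearest of the others took a larger share of the range than Dixon's 95% critical value for 4 samples. Chance gives about 1 in 20 such sets. szl reached 27.7 CPM in untreated stag2b-/- replicate 3, against 10.4 to 11.5 CPM in the other 3 pools. It had 14.6 CPM in treated wild-type replicate 1, against 21.8 to 23 CPM in the others. ved had 141 CPM in untreated wild-type replicate 1, against 70.6 to 82.0 CPM. vent had 22 CPM in untreated rad21-/- replicate 3, against 8.62 to 10.2 CPM. bambia had 76.3 CPM in treated wild-type replicate 4, against 62.8 to 63.7 CPM. bmp2b had 20.7 CPM in treated rad21+/- replicate 1, against 18.3 to 18.5 CPM, and 22.4 CPM in untreated stag2b-/- replicate 4, against 20.4 to 20.7 CPM. Each of the 7 pools is a different library.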

How the results depend on the processing

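In the tests above 42 pairs of a gene and a comparison were called, of which 27 kept their call under every alternative run, and no called or newly called change turned its sign. A further 11 pairs were called under an alternative alone. In the comparisons not named here the count of the 10 genes called stayed within 1.5 times. With all 32 libraries in the fit, 4 of the 10 genes were called in rad21+/- against wild type, bmp4 and ved being added. Of all 21385 genes that fit called 3085 higher and 2942 lower, against 2230 and 2017 of 20677 in the main fit. With the fit reduced to the libraries compared, the response to BIO had 1 gene called in wild type and 2 in rad21-/-. In wild type id3 was left, with bmp4 and bambia lost, and in rad21-/- bmp2b was added to bmp4. Of all genes it called 608 higher and 995 lower of 19732 in wild type, and 527 higher and 1376 lower of 19327 in rad21-/-. With no filter on low counts 0 were called for BIO in rad21+/-, where bmp4 came to an adjusted p of 0.05 after rounding. Of all 28392 genes 182 were called higher and 331 lower there. Leaving out 1 library at a time gave 1 to 2 genes in rad21+/- against wild type and 1 to 4 in rad21-/- against rad21+/-. It gave 0 to 1 for BIO in rad21-/-, for BIO in rad21+/- and for treated stag2b-/- against treated wild type. Such fits often called fewer of all genes too. Without rad21-/- replicate 2, 197 genes were higher and 602 lower than in rad21+/-, against 304 and 795 in the main fit. For BIO in rad21+/-, 43 rose and 76 fell without treated replicate 1, against 281 and 494. For BIO in rad21-/-, 489 rose and 1177 fell without rad21-/- replicate 3, more than the 449 and 1083 of the main fit.

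Groups share replicate numbers, but same-numbered libraries did not deviate together in every pair (r from −0.146 to 0.236 over the 12 comparisons of groups), so the numbers were not taken to pair libraries. In some comparisons they did go together. All 4 libraries were most like their own number in treated rad21-/- against treated wild type, and 0 of 4 in untreated rad21+/- against wild type. With a replicate block, 8 of the 10 genes were called in rad21-/- against wild type, 10 in stag2b-/- against rad21-/- and 2 in treated stag2b-/- against treated wild type. Of all genes the block called 3463 higher and 3713 lower of 20677 in the first of these. It called 3029 higher and 3032 lower of 20677 in the second, and 1758 higher and 1910 lower of 21385 in the third. vent was called under the block in rad21-/- against wild type (log2 fold change −1.40, adjusted p = 6.0e-04), in stag2b-/- against rad21-/- (1.06, adjusted p = 0.0044) and in treated rad21-/- against treated wild type (−1.17, adjusted p = 3.8e-04). szl had few fragments in rad21-/-, 4 to 99 a pool with and without BIO. Untreated rad21-/- replicates 1 and 3 held 4 and 91 of them, at library totals of 46448093 and 45311141 fragments. The source of that spread was not tested.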
